A study of Danio rerio with 6 samples.

Results

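The enzymes that build, desaturate and elongate fatty acids were followed in the heads of zebrafish larvae mutant for *fbln1*, together with the SREBP transcription factor genes that are known to drive them. The 10 members were taken by gene symbol from the 32520 genes in the table, namely *fads2*, *elovl2*, *elovl5*, *elovl6*, *scd*, *fasn*, *acaca*, *aclya*, *srebf1* and *srebf2*. The list was drawn up with the contrast between mutant and WT heads in view, so the values of the members in that contrast are given as a description, without a p-value. RNA-Seq was performed on 3 pools of *fbln1* mutants, homozygous by the study's text, and 3 pools of WT. The allele was ulg075, a small coding deletion made with CRISPR/Cas9. Each pool was of 21 heads of larvae at 10 dpf by the labels and about 20 by the design text. Both groups were on the AB background and came from crosses of *fbln1*+/- parents, and the growth protocol of both names the transgenic line ulg071 Tg. The mutant is a constitutive one of a single allele, so every tissue of the head carried the deletion.

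Fatty acid synthesis starts in the cytosol, where ATP citrate lyase turns citrate into acetyl-CoA, acetyl-CoA carboxylase makes malonyl-CoA and fatty acid synthase joins these units into palmitate. Elovl6 and stearoyl-CoA desaturase then make stearic and oleic acid. Polyunsaturated fatty acids come from plant and algal precursors in the food, which Fads2, Elovl5 and Elovl2 desaturate and elongate in alternation up to docosahexaenoic acid, a lipid in which brain and retina are rich. In zebrafish Fads2 carries out both front-end desaturation steps of this route, and its gene is strongly expressed in intestine and liver. In mammals SREBP1 mainly drives fatty acid genes and SREBP2 mainly drives sterol genes.

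Each library held from 15174207 to 18721515 reads on genes. The values are normalized counts, that is reads divided by 1 size factor per library. The *fbln1* mRNA had 77.4, 136 and 70.4 normalized counts across WT pools 1 to 3 against 93.2, 53.1 and 39.9 in the libraries labelled mutant replicates 1, 2 and 3. The groups overlapped, since mutant replicate 1, as labelled, exceeded 2 of the 3 WT pools, so the level of this mRNA is no check of the labels and pools were grouped by their labels alone. Genes of brain and retina were expressed in every pool. The 8 genes of a brain and glia list summed to between 36954 and 42061 normalized counts, and the 8 retina genes to between 100844 and 125034. Markers of organs behind the head were also present, and the summed exocrine pancreas genes exceeded the retina sum in every pool. The markers are therefore no check that the pools held heads alone. The study's text calls this RNA that of whole larvae in places, whereas its account of the extraction describes heads. Markers of these other organs are set beside the members at the end.

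The test was limma on log2(normalized count + 1) for genes that reached 10 normalized counts in 3 or more libraries, which kept all 10 members among 20691 genes. A gene is named as called when its adjusted p was under 0.05 and its absolute log2 fold change (log2FC) was above 0.5. Of the 10 members, 3 were called higher in the mutant and 1 lower, where 15.4% of all tested genes were called higher and 2.68% lower, or 18.1% in either direction. The 555 genes called lower became 255 without WT replicate 1, 263 without mutant replicate 2 and 1105 without mutant replicate 3. Since the members were chosen on this contrast, nothing is read from their count. The median log2FC of the members was 0.25, and that of all tested genes was -0.03. The 3 genes called higher were those of the polyunsaturated route, and the gene called lower was *srebf1*. The log2FC of the members ranged from -0.51 to 5.90.

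**Figure D1:**
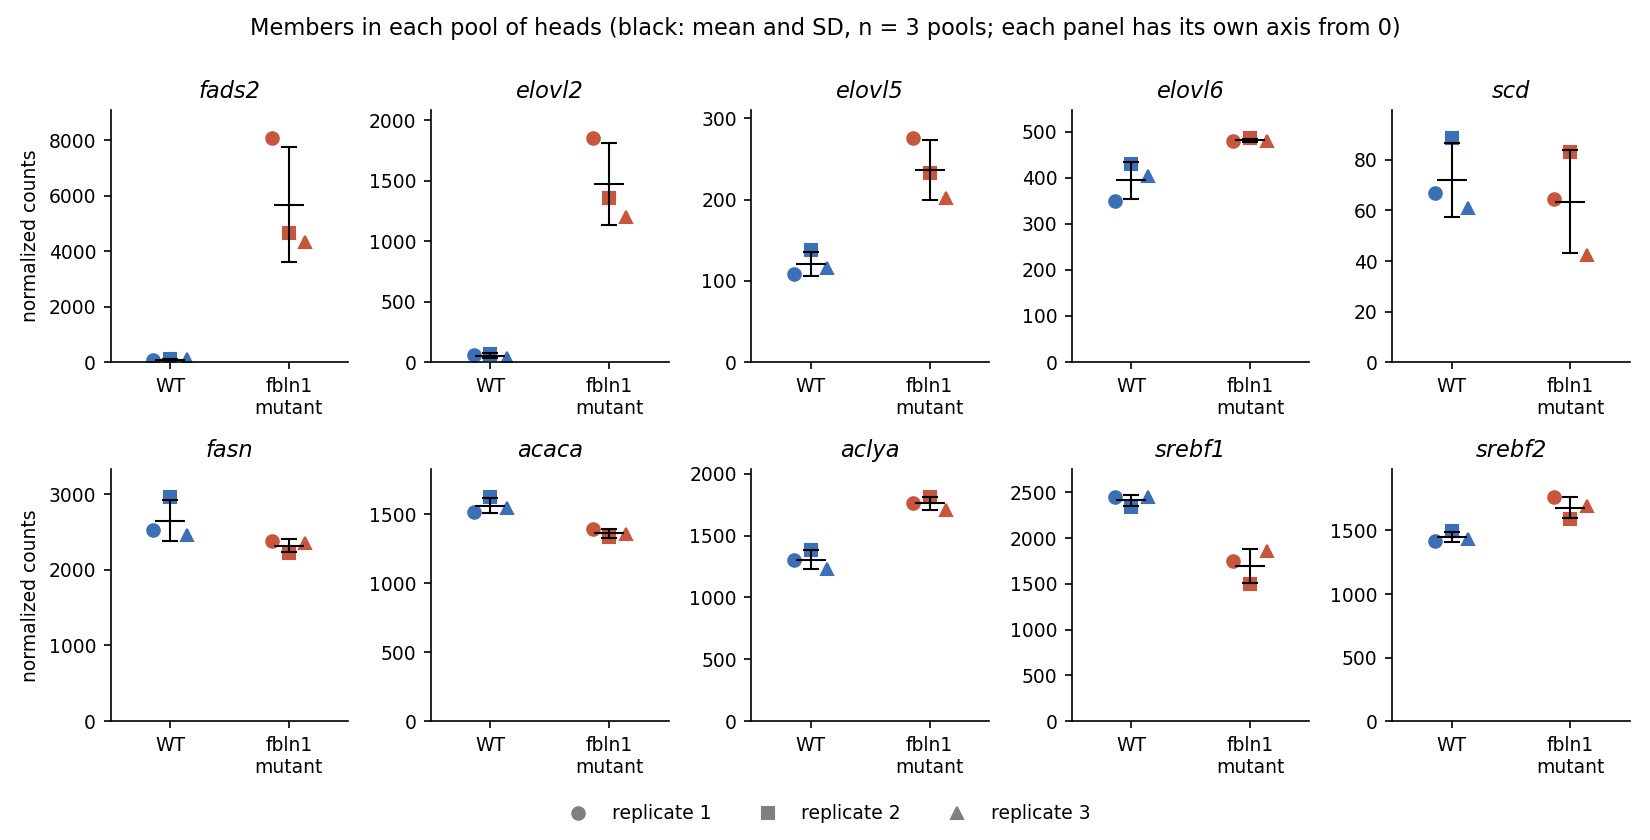
Normalized counts of the 10 members in each pool of heads, with WT in blue, *fbln1* mutants in red, 1 symbol per replicate, and the mean with its SD (n = 3 pools) in black. For *fads2* and *elovl2* the WT pools lie near the base of the axis, *elovl5* separates by a smaller distance, the other members stay in a similar range in both groups, and only the groups of *scd* overlap.

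The desaturase gene *fads2* (ENSDARG00000019532) showed the largest difference among the members. The deposited symbol is used for it, whereas the reference gene table names this identifier FADS3. Its role as Fads2 thus rests on the deposited symbol. The reference carried the same symbol for 8 of the members, so *fads2* was not the only member without a match there. Deposited symbols were used for all members. *fads2* had 74.3, 104 and 95.0 normalized counts across WT pools 1 to 3, and 8068, 4636 and 4331 across mutant pools 1 to 3. The lowest mutant pool was thus 41.8-fold above the highest WT pool, and mutant pool 1 was the highest by a clear distance. The means were 91.0 ± 15.1 in WT and 5678 ± 2076 in the mutant (SD, n = 3 pools each), a ratio of 62.4. The log2FC was 5.90 (standard error 0.21), and only 3 of the 20691 tested genes had a larger one, so that *fads2* stood at rank 4. Of these 3, *lct* and *apoa4a*, named after their values were seen, had at most 1.03 and 3.20 normalized counts in any WT pool. Their values, and with them this rank, thus depend on the pseudocount of 1. WT pools held 72 to 110 reads of *fads2*, well above the limit of 3 reads used as a floor, so the WT level itself was measured.

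The elongase gene *elovl2* (ENSDARG00000045414), whose product lengthens the longer polyunsaturated chains of this route, was the other member with a large difference. Its normalized counts were 60.9, 67.9 and 30.9 across WT pools 1 to 3, and 1849.6, 1356 and 1199 across mutant pools 1 to 3. All mutant pools were above all WT pools, and WT pool 3 was low, with 29 reads. The mean was 53.2 ± 19.6 in WT and 1468 ± 339 in the mutant (SD, n = 3), a 27.6-fold ratio. The log2FC was 4.81 (standard error 0.26), at rank 19 from the top.

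The third gene of the route, *elovl5* (ENSDARG00000004979), whose product elongates the shorter polyunsaturated chains, had a smaller difference. WT pools 1, 2 and 3 had 108, 138 and 116 normalized counts, and mutant pools 1, 2 and 3 had 276, 232 and 202. The groups did not overlap, and the lowest mutant pool was 1.47-fold above the highest WT pool. The mean was 121 ± 15.1 in WT and 237 ± 37.1 in the mutant (SD, n = 3), a ratio of 1.96 and a log2FC of 0.96 (standard error 0.15). In all 3 genes mutant pool 1 was the highest and mutant pool 3 the lowest, and WT pool 2 was the highest of its group. Over fits that each left out 1 pool, the log2FC stayed between 5.62 and 6.07 for *fads2*, between 4.47 and 5.02 for *elovl2*, and between 0.84 and 1.07 for *elovl5*.

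**Figure D2:**
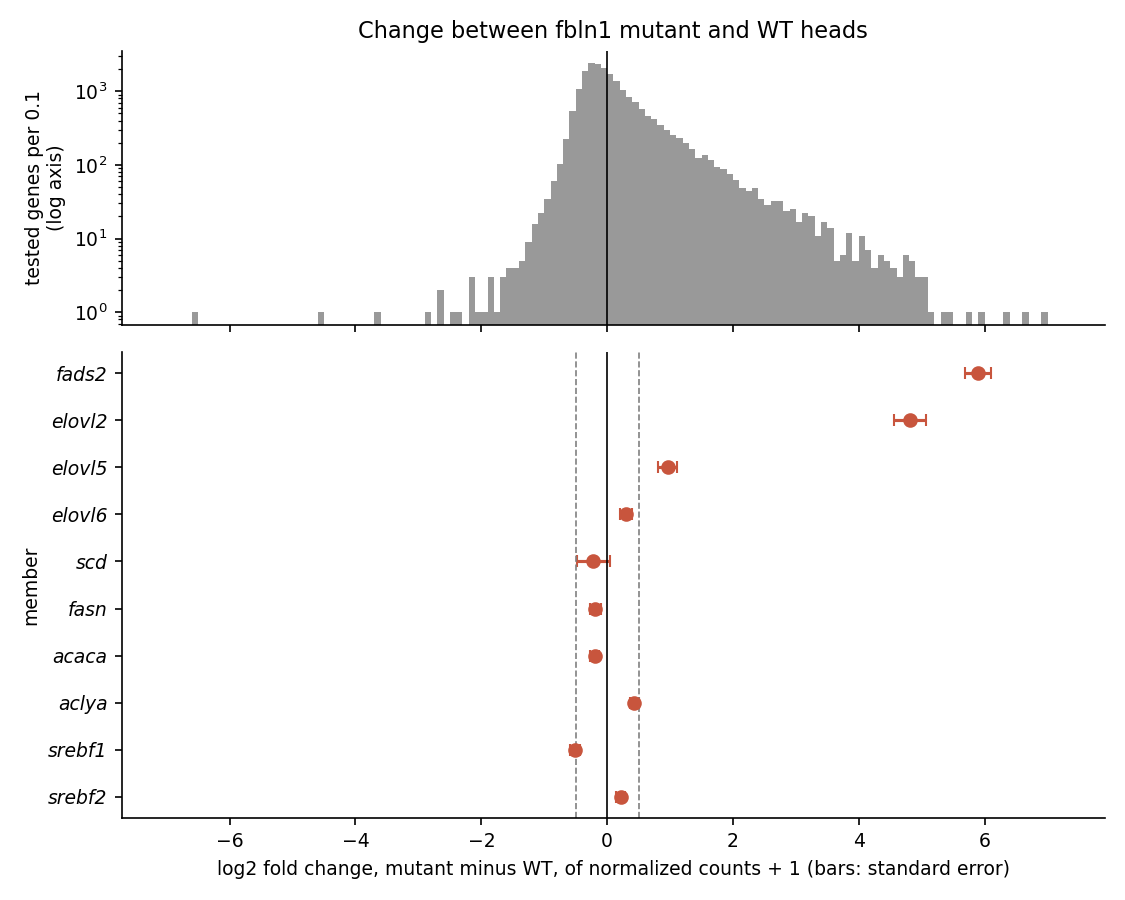
Top, number of tested genes per step of 0.1 of the log2 fold change between *fbln1* mutant and WT heads, on a log axis, and below, the log2 fold change of each member with its standard error, where dashed lines mark 0.5 in either direction. *fads2* at 5.90 and *elovl2* at 4.81 lie in the far tail of the distribution, *elovl5* is at 0.96, and the other members lie between -0.51 and 0.43.

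The members that act on saturated and monounsaturated chains, *elovl6* and *scd*, were close between the groups. *elovl6* (ENSDARG00000004402), which elongates palmitate, had 350.0, 429 and 403 normalized counts across WT pools 1 to 3 against 479.6, 485 and 480.0 across mutant pools 1 to 3. The mutant pools were all above the WT pools, with a factor of 1.12 between the nearest, and the log2FC of 0.29 (standard error 0.10) was below the threshold on the fold change. For *scd* (ENSDARG00000033662), the desaturase that makes oleic acid, the WT pools had 67.1, 88.6 and 60.8 normalized counts and the mutant pools 64.6, 83.3 and 42.5. Here the groups overlapped, and the standard error of 0.26 exceeded the size of the log2FC of -0.22. It became 0.04 when mutant pool 3 was left out, so no direction can be given for *scd*.

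The genes of acyl chain synthesis differed in direction. Fatty acid synthase, *fasn* (ENSDARG00000087657), had 2528, 2957 and 2461 normalized counts in WT and 2379, 2223 and 2356 in the mutant, in pools 1, 2 and 3 of each group. All mutant pools were lower than all WT pools, with a mean of 2319 ± 84.3 against 2649 ± 269 (SD, n = 3) and a log2FC of -0.19 (standard error 0.08). The acetyl-CoA carboxylase gene *acaca* (ENSDARG00000078512) had 1521, 1624 and 1545 normalized counts across WT and 1397, 1336 and 1357 across mutants. It was likewise lower in every mutant pool, with a log2FC of -0.20 (standard error 0.07). The ATP citrate lyase gene *aclya* (ENSDARG00000099079) had 1303, 1381 and 1229 in WT and 1763.5, 1809.5 and 1708 in the mutant, where every mutant pool was higher, with a log2FC of 0.43 (standard error 0.07). None of the 3 genes reached the threshold of 0.5, in the fit given here or with any pool left out.

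The SREBP genes differed in direction. *srebf1* (ENSDARG00000067607) had 2444, 2342 and 2443 normalized counts across WT pools 1 to 3 against 1746, 1495 and 1854 across mutant pools 1 to 3. The groups were clearly apart, with a mean of 2409.7 ± 58.6 in WT and 1698 ± 184 in the mutant (SD, n = 3), and the WT mean was 1.42-fold above the mutant mean. Its log2FC of -0.51 (standard error 0.09) was just past the threshold. It was not past it with TMM scaling (-0.48), with edgeR (-0.47), with DESeq2 (-0.50), without WT replicate 1 (-0.50), without WT replicate 3 (-0.50) or without mutant replicate 2 (-0.42), so the direction held and the call did not.

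*srebf2* (ENSDARG00000063438) had 1419.6, 1493 and 1432 normalized counts in WT and 1760.4, 1592 and 1689.6 in the mutant, higher in every mutant pool. The log2FC was 0.21 (standard error 0.07). Within a pool, the ratio of *srebf2* to *srebf1* normalized counts was 0.58, 0.64 and 0.59 across WT pools 1 to 3 against 1.01, 1.06 and 0.91 across mutants. Such a ratio depends on the lengths of both mRNAs, so only its shift between the groups can be read.

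Ratios to the synthase and to *elovl5* were formed in the same way. The ratio of *fads2* to *fasn* normalized counts was 0.029, 0.035 and 0.039 across WT pools 1 to 3 against 3.39, 2.09 and 1.84 across mutants. The ratio of *fads2* to *elovl5* went from between 0.69 and 0.82 in WT to between 20.0 and 29.3 in the mutant. By contrast, *acaca* over *fasn* stayed at 0.60, 0.55 and 0.63 in WT and 0.59, 0.60 and 0.58 in the mutant, with overlapping groups. *fads2* was thus higher relative to *fasn* in each mutant pool, whereas *acaca* was not.

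Members also differed in how much the pools of a group varied. The coefficient of variation between mutant pools was 36.6% for *fads2*, 32.3% for *scd* and 23.1% for *elovl2*, and 0.68% to 15.7% for the other 7 members. In WT it ranged from 2.43% for *srebf1* to 36.9% for *elovl2*. WT pool 2 was the highest of its group in 9 of the 10 members, with *srebf1* as the exception. The share of all tested genes with this pool highest was not computed, so nothing about the members is read from this count. Across all members, the groups did not overlap for 9, with the mutant higher in 6 and lower in 3, where 24.5% and 24.3% of all tested genes had such mutant pools above and below.

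The genes that work beside the member desaturases and elongases were taken from lists chosen by function, with earlier results of these data known. Their p-values are adjusted over all tested genes. Of 10 other desaturases and electron donors, 4 were called higher. The cytochrome b5 reductase gene *cyb5r2* showed the largest difference, with 17.6, 13.2 and 12.8 normalized counts across WT and 554, 386 and 312 across mutants. These groups were far apart, and its log2FC was 4.73 (standard error 0.23, limma adjusted p = 5.25e-07). The other 3 were *degs2*, a sphingolipid desaturase gene (1.71, adjusted p = 0.000215), *cyb5a*, which encodes the cytochrome b5 that passes electrons to desaturases (1.48, adjusted p = 6.3e-05), and *cyb5r3*, a further reductase (0.95, adjusted p = 0.00105). The most abundant gene of the list, the *scd* paralog *scdb*, was not called, with 2371, 2643 and 2498 normalized counts in WT, 2179.5, 2093 and 2205 in the mutant and a log2FC of -0.21 (limma adjusted p = 0.0387).

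Of the 9 elongases that are no members, 6 were called higher. The largest log2FCs were 1.81 for *elovl8b*, an elongase found in fish (limma adjusted p = 0.000753), and 1.79 for *elovl1a*, an elongase of saturated very long chains (adjusted p = 0.00281). *elovl8b* had 24.8, 30.2 and 20.3 normalized counts across WT and 104.5, 108 and 63.3 across mutants, without overlap. *elovl7b* (1.49, adjusted p = 0.0145) and *elovl7a* (1.01, adjusted p = 0.00625) followed, and the call of *elovl7b* was lost without mutant replicate 1 (adjusted p = 0.06). The paralogs *elovl4a* and *elovl4b*, whose products make very long chains in brain and retina, differed in call. *elovl4a* was not called, with a log2FC of -0.25 (adjusted p = 0.0528). *elovl4b*, named after its values were seen, was called higher (0.58, adjusted p = 0.00399), with 640.1, 718 and 522 normalized counts across WT and 882, 897 and 1018 across mutants, and its call was lost without WT replicate 3 (0.46).

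Each elongase step is completed by a reductase, a dehydratase and a further reductase, and 3 of these 8 genes were called higher. They were *tecra*, an enoyl-CoA reductase gene (1.90, limma adjusted p = 0.00194), *hacd1*, a dehydratase gene (1.10, adjusted p = 0.002), and *hsd17b12b*, a ketoacyl-CoA reductase gene (0.57, adjusted p = 0.00926). Without mutant replicate 1 *hsd17b12b* was at 0.49 and 2 genes were called. *tecrb*, a further enoyl-CoA reductase gene, was not called, and its log2FC was 0.34 (adjusted p = 0.0161).

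**Figure D3:**
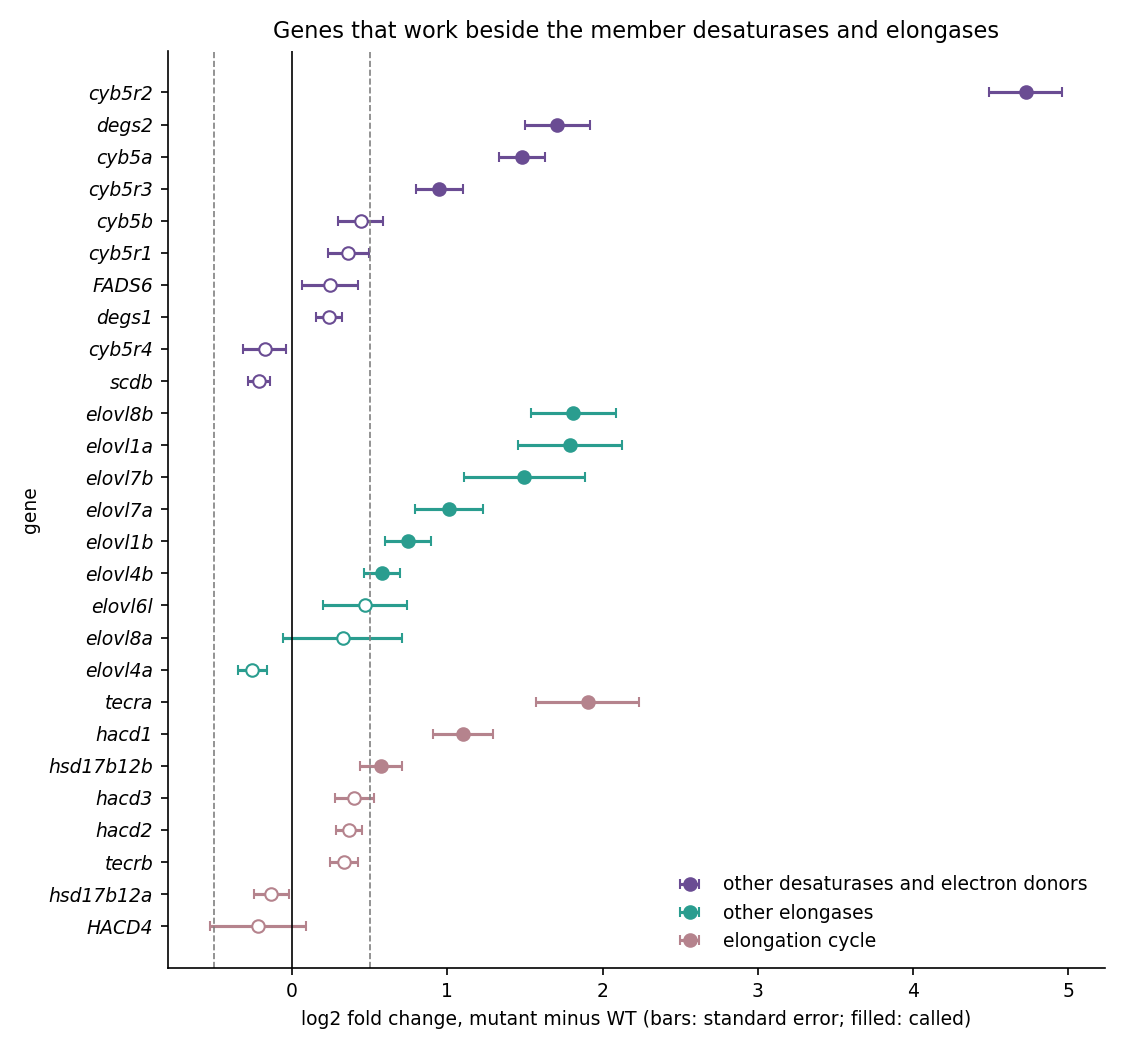
Log2 fold change between *fbln1* mutant and WT heads, with its standard error, of each gene of the lists of other desaturases and electron donors, other elongases and the elongation cycle, where filled points are called genes and dashed lines mark 0.5 in either direction. *cyb5r2* at 4.73 stands apart, 6 of 9 elongases are filled, and *scdb* and *elovl4a* lie left of 0.

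The supply of carbon and reducing power was compared next. Of 10 genes, 4 were called higher, with the largest difference for *me1*, the cytosolic malic enzyme that makes NADPH. Its normalized counts were 22.7, 42.4 and 35.2 across WT and 160, 135 and 136 across mutants, a log2FC of 2.11 (standard error 0.24, limma adjusted p = 0.000126). The mitochondrial citrate carrier gene *slc25a1b* (0.78, adjusted p = 0.0159) and the genes of the carboxylase partners *mid1ip1a* (0.57, adjusted p = 0.0155) and *mid1ip1b* (0.53, adjusted p = 0.00227) were the other 3. These 3 calls depended on single pools: *slc25a1b* was lost without WT replicate 1 (adjusted p = 0.0561) or mutant replicate 1 (0.0626), *mid1ip1a* without WT replicate 2 (at 0.39) or mutant replicate 2 (adjusted p = 0.0596), and *mid1ip1b* without WT replicate 2 (0.44). The citrate synthase gene *cs* was not called (0.20, adjusted p = 0.083). More abundant paralogs of the carrier and partner genes, named after their values were seen, were not called and leaned lower. They were *slc25a1a* (-0.22, adjusted p = 0.07) and *mid1ip1l* (-0.18, adjusted p = 0.208).

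Paralogs of the members were named after their values were seen. *acacb* had a log2FC of 0.47 (limma adjusted p = 0.00329), *aclyb* of 0.09 (adjusted p = 0.812) and *elovl6l* of 0.47 (adjusted p = 0.204). None was called, but *acacb* was past the threshold at 0.51 with TMM scaling, with edgeR and without mutant replicate 3. How reads of similar sequence were shared between such paralogs is not given in the sources used here.

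Downstream of synthesis, fatty acids are activated to acyl-CoA and built into glycerolipids. Of 10 acyl-CoA synthetase genes, 3 were called higher, namely *acsl5* (2.67, limma adjusted p = 0.000255), *acsbg1* (1.80, adjusted p = 0.00251) and *acsl1b* (1.60, adjusted p = 7.27e-05). *acsbg2*, the most abundant of those not called, differed by -0.01 (adjusted p = 0.907). Of 13 genes of glycerolipid assembly, 4 were called higher, led by *mogat2*, the monoacylglycerol acyltransferase known from fat absorption in mammalian intestine. It had 11.4, 8.48 and 22.4 normalized counts across WT and 264, 161 and 106 across mutants, a log2FC of 3.57 (standard error 0.39, adjusted p = 9.89e-05).

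The other 3 were *mogat3b* (1.90, limma adjusted p = 0.000553) and the diacylglycerol acyltransferase genes *dgat1a* (1.42, adjusted p = 0.000436) and *dgat1b* (0.84, adjusted p = 0.0146). The call of *dgat1b* was lost without mutant replicate 1 (adjusted p = 0.0565). *lpin1*, a phosphatidate phosphatase gene, was at -0.47 (adjusted p = 0.0022) and was called lower only with scaling by library totals (-0.51) and without mutant replicate 1 (-0.54). The summed normalized counts of the list, to which *lpin1* gave the largest part, were lower in the mutant. They lay between 16942 and 17390 in WT and between 13225 and 15507 in the mutant.

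Regulators other than the SREBP genes were mostly not called. Of 11 tested identifiers, 1 was called higher, *hnf4a*, a transcription factor gene of liver and gut, with 80.5, 71.6 and 65.1 normalized counts across WT and 210.1, 199 and 182 across mutants (1.43, standard error 0.15, limma adjusted p = 7.4e-05). *ppargc1b*, a coactivator gene of lipid metabolism, was at -0.26 (adjusted p = 0.0126). The count was 2 without WT replicate 3, with scaling by library totals, with DESeq2 and with the replicate number as a block. In these settings the bile acid receptor gene *nr1h4* was also called. It was at 0.95 (adjusted p = 0.0539) in the fit given here and at 1.28 (adjusted p = 0.0233) without WT replicate 3. Like *nr1h4*, named after their values were seen, *scap*, which escorts SREBP proteins to the Golgi, was at -0.37 (adjusted p = 0.0137), and *insig1*, which retains them, at 0.18 (adjusted p = 0.141). The paralog *insig2*, also named after its value was seen, had the opposite sign to *insig1*, at -0.42 (adjusted p = 0.156).

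Oxidation of fatty acids is the opposite process. Of its 16 genes, 12 were called higher and 1 lower, with a median log2FC of 0.91. *cpt1b*, the muscle form of the carnitine palmitoyltransferase that admits fatty acids to mitochondria, had the largest value (1.96, limma adjusted p = 0.00264), followed by the carrier gene *slc25a20* (1.67, adjusted p = 2.3e-06), *cpt2* (1.65, adjusted p = 0.000101) and *hadhab* of the trifunctional protein (1.59, adjusted p = 2.06e-05). *slc25a20* had 224, 242 and 207 normalized counts across WT and 789, 695 and 659 across mutants, far apart. *cpt1aa* was not called (-0.14, adjusted p = 0.221). The gene called lower was the receptor gene *pparab* (-0.60, adjusted p = 0.0126), which was named after its value was seen and whose call was lost without WT replicate 1 (adjusted p = 0.0526).

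Among sterol synthesis and uptake genes, which SREBP2 is known to drive, 17 of 20 were called higher, with a median of 2.11. *sqlea*, *lss*, *cyp51* and *nsdhl* were at 5.32, 4.71, 4.69 and 4.38, of which *sqlea* lay between *fads2* and *elovl2* and the other 3 below *elovl2*, while the receptor gene *ldlra* was not called (0.11, limma adjusted p = 0.402). Over all pathway lists, 54 of 107 tested genes were called higher and 1 lower. Without the sterol list 37 of 87 were called higher, which is 42.5%, beside the 15.4% of all tested genes given above. Since earlier results of these data were known when the lists were chosen, these shares are a description and no enrichment is read from them.

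**Figure D4:**
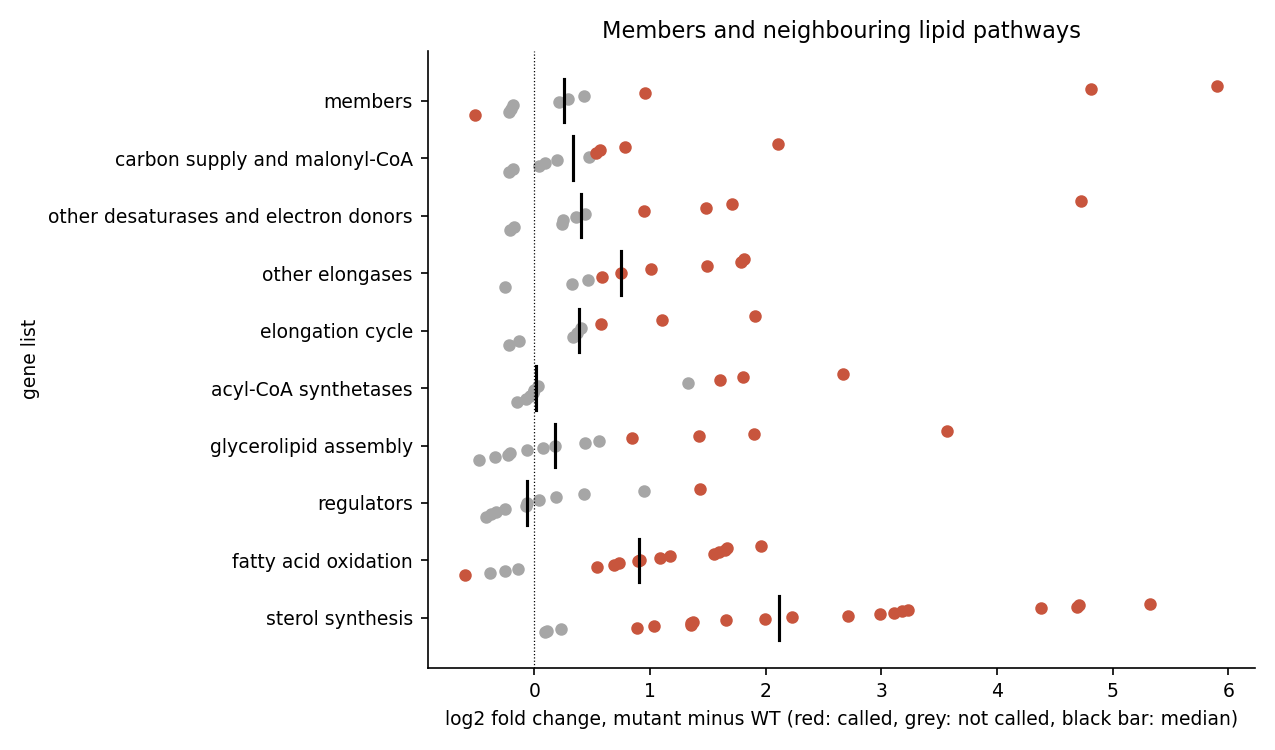
Log2 fold change between *fbln1* mutant and WT heads of each tested gene of the members and of the neighbouring lists, with called genes in red, the others in grey and the median of each list as a black bar. The members spread from -0.51 to 5.90 around a median of 0.25, while the medians of fatty acid oxidation and sterol synthesis lie at 0.91 and 2.11.

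The genes whose profile over the 6 pools was nearest to that of *fads2* were found by the Euclidean distance of centred log2 values, as a description. At distances between 1.07 and 1.27 stood *zgc:171470*, which is listed at 0 in all WT pools, *krtt1c19e*, a keratin gene, *sqlea*, *apoa4b.2*, an apolipoprotein gene, and *ugt5d1*, a glucuronosyltransferase gene. *krtt1c19e* had 135, 82.0 and 75.8 normalized counts across WT and 5934, 5367 and 3987 across mutants. Nearest to *elovl2*, at distances between 0.35 and 0.71, stood *si:dkey-95h12.1*, *si:dkey-11o15.7*, *creb3l3a*, a transcription factor gene, *casq1a*, a calcium-binding protein gene of muscle, and *apoea*, an apolipoprotein gene. *apoea* had 346, 381 and 308 normalized counts across WT and 12484, 7382 and 7156 across mutants. In WT, *si:dkey-95h12.1*, *si:dkey-11o15.7* and *creb3l3a* had at most 3.77, 1.03 and 2.83 normalized counts, and *ugt5d1* at most 1.88. With *zgc:171470*, they were near or below the floor of 3 reads in WT, so their distances depend on the pseudocount.

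Markers of other organs differed between the groups in the same pools, though in the liver and adipocyte lists not all genes did. All 14 identifiers of the intestine list were called higher, and their summed normalized counts were between 6077 and 7676 in WT and 91584, 57787 and 47093 across mutant pools 1 to 3, the order of pools also seen for *fads2*, *elovl2* and *elovl5*. The summed lists of other desaturases, other elongases, the elongation cycle, acyl-CoA synthetases, fatty acid oxidation and sterol synthesis had this order too. The order was thus not limited to the intestine marker list, though the remaining pathway and marker lists did not have it. Which tissue the genes of these lipid lists came from was not tested. The share of all tested genes with this order was not computed, so nothing is read from it. Of 14 liver genes, 5 were called higher (between 4 and 8 over the alternatives), and the sum was between 34519 and 41088 in WT and between 65593 and 75303 in the mutant. The hepatocyte gene *fabp10a* was not called (0.19, limma adjusted p = 0.303), and *tfa* was (2.72, adjusted p = 2.17e-08). *apoa2*, the most abundant gene of the list, was also called (1.75, limma adjusted p = 1.76e-06). The mean of *apoa2* went from 5726 in WT to 19214 in the mutant, and that of *tfa* from 2155 to 14198. The rise of the liver sum thus rests largely on these 2 genes, and 9 of the 14 genes were not called. All 14 exocrine pancreas genes were called higher, though 7 were without WT replicate 3 and 5 without a variance trend, with sums between 124257 and 228145 in WT and between 230415 and 388876 in the mutant. All 5 skin genes were called higher, with sums between 12988 and 16725 in WT and between 49282 and 69540 in the mutant. Of 7 tested identifiers of the adipocyte list 3 were called higher (between 1 and 3 over the alternatives), and their most abundant gene *lpl* was not called (-0.46, adjusted p = 0.00504), though it was called lower without WT replicate 2 (-0.53) or mutant replicate 1 (-0.51). The sum of the whole adipocyte list, to which *lpl* gave the largest part, was lower in the mutant. It lay between 8669 and 10358 in WT and between 7009 and 8406 in the mutant. The fat cell gene *plin1*, named after its values were seen, was below the filter with at most 9.29 normalized counts in any pool.

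No marker was at 0 in all pools, 1 of 8 brain and glia genes was called higher (*fabp7a* at 0.99, named after its value was seen) and the sums of brain and retina genes overlapped between the groups. In pools sequenced as a whole, more cells of a type and more RNA per cell cannot be told apart. Nor can cells of the head be told from cells of organs behind it that were taken along. *fads2* normalized counts were 0.97% to 1.71% of the summed intestine genes in WT and 8.02% to 9.20% in the mutant, and *elovl2* went from 0.46% to 1.12% in WT to between 2.02% and 2.55%. Over the summed list *elovl5* was at 1.41% to 2.26% in WT and 0.30% to 0.43% in the mutant. The enterocyte gene *fabp2* was taken as well, outside the rule for named genes given below. Relative to *fabp2* alone, *fads2* was at 13.1% to 27.9% in WT and 60.5% to 77.6% in the mutant. The groups of *elovl2* overlapped, at 7.92% to 18.3% and 13.9% to 21.5%. For *elovl5* the share was 19.1% to 37.1% in WT and 2.07% to 3.62% in the mutant, lower as with the summed list. The intestine sum rests largely on *apoa1a*. Its genes were all called higher but differed in the size of the change. The log2FC of *apoa1a* (2.85) and *apoa4b.1* (2.76), the most abundant genes of the list, was below that of *fads2* and *elovl2*. The log2FC of *apoa4b.2* (ENSDARG00000020866, 5.20) exceeded that of *elovl2*. Named after their values were seen, *apoa4a* (6.98), *apoa4b.2* (ENSDARG00000094929, 6.68) and *lct* (6.34) exceeded *fads2*. Of these, *lct* and *apoa4a* were near the floor of 3 reads in WT, so their values depend on the pseudocount. A further lactase identifier, *LCT* (ENSDARG00000092404), also named after its value was seen and near the floor in WT, was at 3.81, below both members. Whether *fads2* and *elovl2* stood higher or lower relative to intestine markers thus depended on the marker. The median log2FC of the intestine list, 3.12, was below that of both members. The part of these markers in the differences of the members was not tested.

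**Figure D5:**
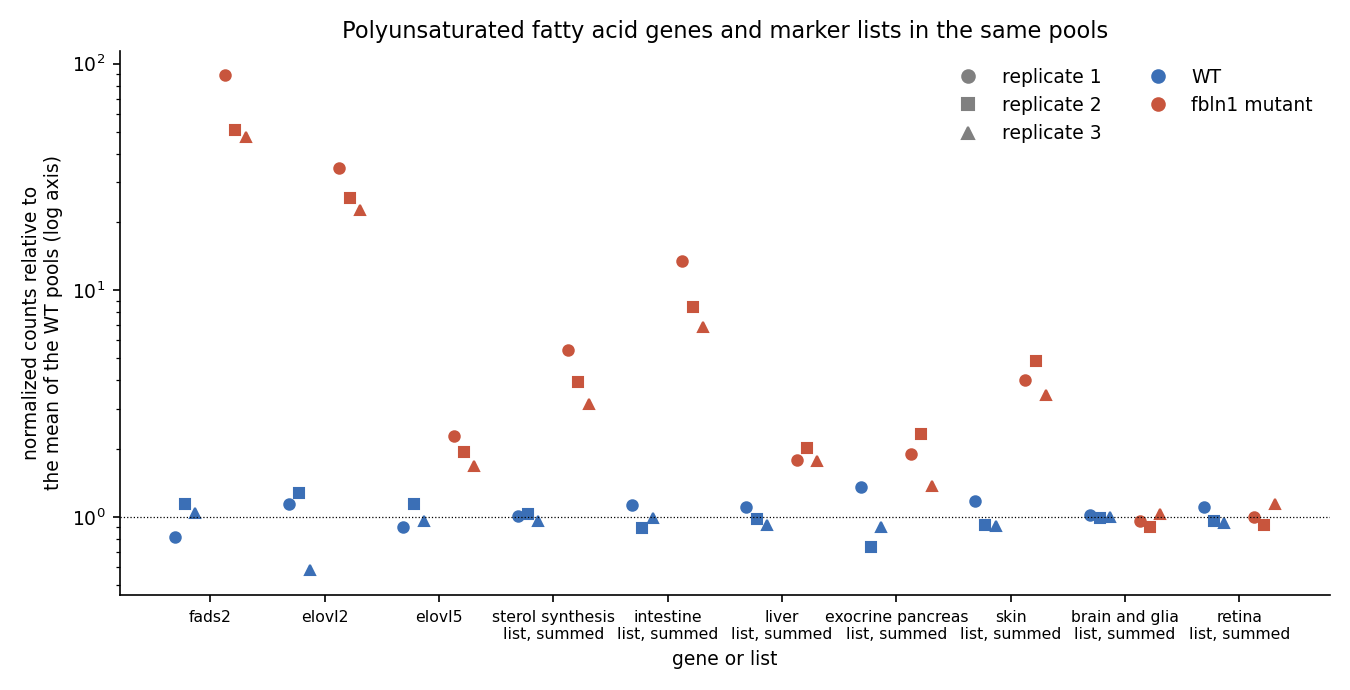
Normalized counts of *fads2*, *elovl2* and *elovl5* and summed normalized counts of sterol and marker lists in each pool, relative to the mean of the WT pools, on a log axis, with WT in blue and *fbln1* mutants in red and 1 symbol per replicate. Of the sums shown, those of intestine and sterol genes share with the 3 members the order of mutant pools 1, 2 and 3. Sums of several lipid lists that are not shown also have this order. The brain and retina sums stay near 1.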

How the data were processed

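The 6 pools were grouped by GEO's labels. The authors ran the nf-core pipeline for RNA-Seq (GRCz11, Ensembl annotation) and deposited gene counts divided by 1 size factor per library, a normalized signal. Dividing by the smallest step of each library gave whole reads for 100% of values (within 0.1 of a whole number), and 3 reads correspond to between 2.60 and 3.20 normalized counts, which covers counting error only. A further deposited table of the authors' own fold changes and p-values was not used. limma 3.58.1 (R 4.3.3) was fitted on log2(normalized count + 1) with genotype as the only term, a variance trend and Benjamini-Hochberg adjustment, so changes of low genes are understated. Labels call the pools independent batches. The design text compares each mutant batch with its WT siblings, but the labels do not say which number pairs with which. The p-values therefore measure the spread between pools. Symbols of lists were matched without regard to case.

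The members and lists were chosen with earlier results of these data known. Named genes are all members, up to 4 called genes with the largest changes and the most abundant gene not called of each pathway list, up to 3 of the most abundant genes of a marker list, and 5 nearest profiles. Apart from *fbln1*, genes outside this rule are marked where they are named. Alternatives covered scaling, filter, pseudocount (0.5 and 5), variance trend, edgeR 4.0.16 and DESeq2 1.42.0 on recovered reads, the fold threshold, a replicate block and leaving out each pool. The fits were also run on simulated data with few changed genes, split evenly between directions, and a fixed dispersion. Most called genes here were higher, so that run checks the code and not the tests under such a change.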

Additional observations from a re-analysis of the deposited data

How the results depend on the processing

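The number of members called was 4 and lay between 3 and 4 over the alternatives that kept the threshold on the fold change. Without that threshold it was 8, of which 6 were higher and 2 lower in the mutant, beside 18.9% and 15.1% of all tested genes, and over all genes 7022 were then called in place of 3746. Genes called lower numbered 353 with TMM scaling and 320 with edgeR, in place of 555. The call that moved was that of *srebf1*, for the settings given with its values. *fads2*, *elovl2* and *elovl5* were called higher under each of the 15 alternatives to which single genes were put. For *scd*, fits that each left out 1 pool gave log2FC values between -0.44 and 0.04, and it was above 0 (0.041) only without mutant replicate 3. The other members kept their direction under all 15. Pathway genes called numbered 55, and between 50 and 68 over all alternatives.

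With the replicate number as a block, 3822 genes, 4 members and 57 pathway genes were called. Same-numbered pools correlated in their deviations from the group means by 0.04, 0.15 and 0.04 over tested genes. Pools of different numbers correlated by between -0.09 and 0.05. Mutant pool 3 correlated about as well with WT pool 1 (0.048) as with WT pool 3 (0.041). These values do not settle whether the numbers mark pairs. The labels do not give a pairing, so the main fit did not use one, and the block stands as an alternative. With 3 pools a group, changes well below 0.5 on the log2 scale rest on small spreads between pools.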
